A study of Mus musculus with 6 samples.

Results

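The comparison set 2 arrays of epoxomicin-treated mouse CD8+ T cells directly against 2 arrays of E9-treated cells, which are 4 of the 6 arrays of the series. Both groups were CD8+ T cells isolated from spleens of C57BL/6 mice aged 6 weeks. One group was pre-treated with epoxomicin at 0.5 µM, a covalent inhibitor of the proteasome. The other was pre-treated at 1.0 µM with E9, which the labels know only by this code and list as an activator of the proteasome. Every culture then spent 3 days on plate-bound anti-CD3 and anti-CD28 (5 µg/ml) in medium with IL-2, so both groups, and the 2 DMSO vehicle arrays, were activated alike. The series' design names the cells as CD8+CD44+ and the pairs as biological duplicates, without saying whether 2 arrays came from the same mouse or day. The doses of the compounds differ. Total RNA was hybridised to Illumina mouse bead arrays, and a probe was used when it carried a gene symbol and read above background on at least 2 of the 4 arrays. This left 19025 named probes for 12650 genes, each represented by its brightest probe. The DMSO arrays took no part in the test and are given as values beside some of the named genes only.

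The proteasome degrades ubiquitin-tagged proteins, and among its substrates are inhibitors of transcription factors, such as the inhibitor of NF-kB, as well as cell cycle regulators. In CD8+ T cells the immunoproteasome, an interferon-inducible form, also makes peptides for MHC class I molecules. A CD8+ T cell activated through its receptor and CD28 secretes cytokines and chemokines, divides, and takes on an effector or a memory programme. Epoxomicin is widely used to block the catalytic subunits of the proteasome.

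Among named genes measured on all 4 arrays, the 3 highest with epoxomicin relative to E9 were secreted mediators, the chemokine Ccl1, Il2 and Xcl1. The 3 lowest were Lmna, Vim and Ly6c1, which encode a nuclear lamin, an intermediate filament protein and a surface protein of memory-type CD8+ T cells. Most measured guanylate-binding proteins, ATF4 and CHOP stress genes and NK type receptors were lower with epoxomicin too. In all, 1443 of the 12650 genes (11.4%) passed an adjusted p under 0.05, and those genes are called changed below. With epoxomicin 671 genes (5.30%) were higher and 772 (6.10%) were lower. Of the changed genes 164 (1.30%) differed at least 2-fold, 74 (0.585%) higher and 90 (0.711%) lower with epoxomicin. In each of the 1443 genes both epoxomicin arrays lay on the same side of both E9 arrays, which was also the case in 51.1% of all genes tested. Arrays were then left out 1 at a time, here and for many of the lists and genes below. Lists printed without such counts were not all unchanged in these fits. The count of changed genes was 641 without epoxomicin array 1 and 611 without epoxomicin array 2, with 245 higher and 396 lower genes in the first case and 256 higher and 355 lower in the second. Without an E9 array it was 1656 or 1841. The 164 genes differing at least 2-fold came to between 162 and 180 in the same fits.

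Where the mean of all kept probes of a gene gave a log2 fold change over 1.5 times smaller than the brightest probe, that value follows as the probe mean. Fold changes are epoxomicin over E9 on a log2 scale with an offset of 50 added to the background-corrected intensity, which understates the change of dim genes. The median log2 fold change of all 12650 genes was 0.0079 and the median standard error (SE) 0.073. The authors had given every array the same set of intensities, with a median of 34.2 and a range of 22 to 18026.1, so a change in total RNA per cell cannot be seen. In these bulk samples fewer cells of a type and less RNA per cell cannot be told apart. Over the genes tested (not independent units) the 2 epoxomicin arrays correlated with r of 0.998, the 2 E9 arrays with 0.996 and arrays of different groups with 0.985 to 0.987. The first principal component of the 4 arrays held 80.4% of the variance and separated the treatments. DMSO arrays were set beside the calls with no test. Their mean was nearer to epoxomicin than to E9 in 564 of the 671 higher genes and in 711 of the 772 lower genes. Between the means of epoxomicin and E9 lay the DMSO mean of 420 of the higher and 371 of the lower genes.

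**Figure D1:**
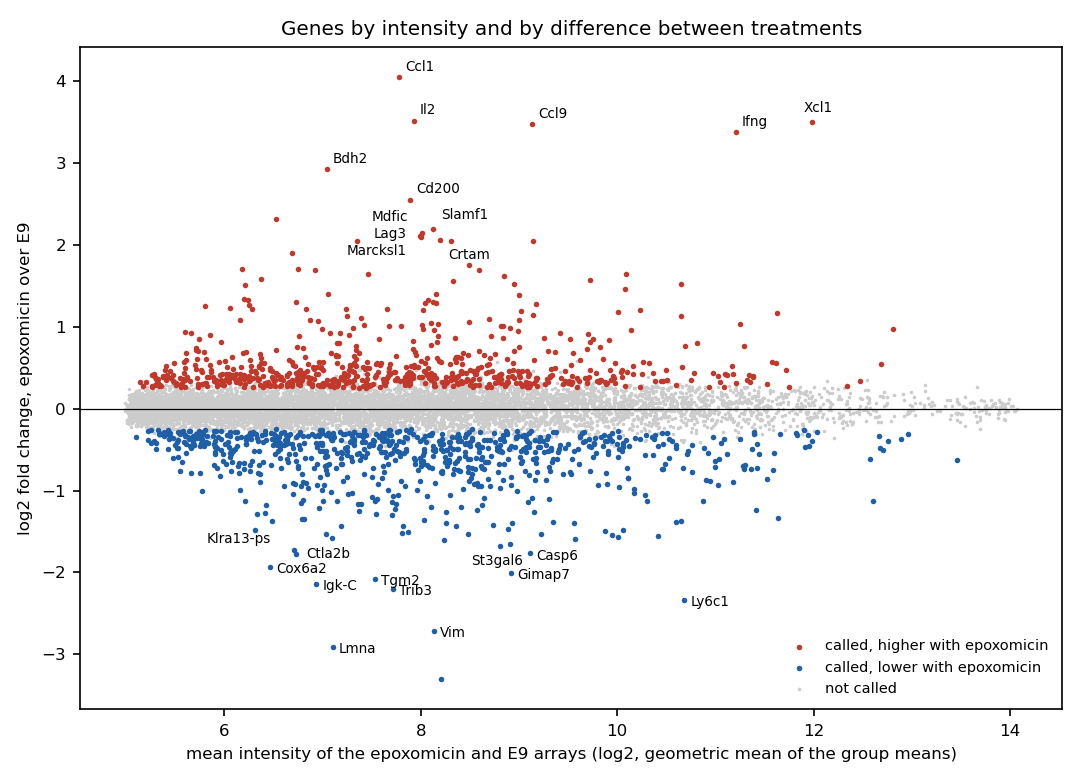
Each point is 1 of 12650 genes, with the log2 mean intensity of the epoxomicin and E9 arrays on the x axis and the log2 fold change of epoxomicin over E9 on the y axis. Red and blue points are the 671 higher and 772 lower genes, grey points did not pass, and the 12 highest and 12 lowest genes of the naming rule are labelled, with Ccl1 at 4.05 and Lmna at -2.91.

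Promoter sequences are shown for 6 genes on which the groups below turn, since each holds letters of a motif tied in textbooks to the group it belongs to. They are RefSeq windows on GRCm38.p6 (mouse), 120 bases each from the stretch of 250 bases before the gene's start, 5′ to 3′ on the gene's strand, with motif letters in capitals. Both strands were searched for GGGA and TTCC with any 2 bases between them (NF-kB), GGAAAA (the NFAT core), GAAA and GAAA with any 2 bases between them (the interferon-stimulated response element), and TGATG, any base, then AA (the C/EBP-ATF element).
Ccl1, NF-kB letters matching on both strands in an overlap, minus strand, chr11:82179943-82180062: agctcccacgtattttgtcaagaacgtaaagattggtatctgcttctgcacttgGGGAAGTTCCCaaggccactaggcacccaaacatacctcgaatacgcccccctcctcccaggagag
Nfkbia, NF-kB letters, minus strand, chr12:55492648-55492767: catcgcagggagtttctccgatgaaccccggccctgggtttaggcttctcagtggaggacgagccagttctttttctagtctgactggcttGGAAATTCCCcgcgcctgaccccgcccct
Il2, NFAT core letters at 2 places, minus strand, chr3:37125985-37126104: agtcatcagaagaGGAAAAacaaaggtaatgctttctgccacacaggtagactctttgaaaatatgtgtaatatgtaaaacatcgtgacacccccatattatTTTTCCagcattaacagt
Gbp2, interferon-stimulated response element letters, plus strand, chr3:142620543-142620662: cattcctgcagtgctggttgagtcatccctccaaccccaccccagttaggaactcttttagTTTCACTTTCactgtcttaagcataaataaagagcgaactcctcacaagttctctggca
Ifit3, interferon-stimulated response element letters at 2 places, plus strand, chr19:34583335-34583454: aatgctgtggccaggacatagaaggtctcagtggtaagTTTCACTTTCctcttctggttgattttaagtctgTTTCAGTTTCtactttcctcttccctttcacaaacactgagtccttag
Chac1, C/EBP-ATF letters, plus strand, chr2:119350993-119351112: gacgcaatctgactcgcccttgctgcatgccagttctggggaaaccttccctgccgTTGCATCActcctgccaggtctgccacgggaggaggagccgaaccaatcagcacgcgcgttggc
Of the 12650 genes tested, 9273 had such windows. The interferon-stimulated response element letters stood in 6 of the 8 windows of called guanylate-binding and IRG genes and in 5 of the 17 windows of called interferon-stimulated genes, against 2.69% of the 11755 windows of genes tested and 2.98% of all 32851 promoter windows. Among the windows of the interferon-stimulated genes holding them was that of Ifitm2, which was higher with epoxomicin. The same letters stood in none of the 3 windows of called MHC class I and peptide loading genes. Of windows of all genes lower with epoxomicin 5.73% held them, and of those of all higher genes 3.40%. NF-kB letters stood in 3 of 16 windows of the called NF-kB list, which cover 9 genes. These 3 windows belonged to Nfkbia and Nfkb2. NF-kB letters also stood in 2 of 5 windows of the called chemokines (Ccl1, higher with epoxomicin, and Cxcl10, lower). The share was 1.21% of windows both of genes tested and of all. It was 1.48% for all genes higher with epoxomicin and 1.62% for all lower genes. The C/EBP-ATF letters stood in 4 of 13 windows of the called ATF4 and CHOP list, against 2.16% of windows of genes tested and 3.45% of all. The NFAT core, a short motif, stood in 19.7% of windows of all genes higher with epoxomicin, in 18.5% of windows of genes tested and in 20.4% of all windows. These matches describe letters in a window and were not tested.

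Chemokines and cytokines held the largest differences in favour of epoxomicin. Of 10 measured chemokines 4 were higher and 2 lower with epoxomicin, with a median log2 fold change of 0.15, and of 17 measured cytokines 7 were higher and 4 lower, with a median of 0.025. Without epoxomicin array 1 or array 2, 3 cytokines were higher in each case, with 4 and 2 lower, and 1 chemokine was lower without epoxomicin array 2. Ccl1, a ligand of the receptor CCR8, read 1010.6 and 1232.1 on the epoxomicin arrays, against 45.3 and 41.1 on the E9 arrays and 628.4 and 774.5 on the DMSO arrays (log2 fold change 4.05, SE 0.099, adjusted p = 1.3e-06). Both E9 arrays were thus close to the background limit of 34.5, while the other arrays of the series were bright. Xcl1, the lymphotactin that draws cross-presenting dendritic cells, was among the brightest genes, with 13489.3 and 13794.5 in epoxomicin, against 1337.5 and 1047.7 in E9 and 12876.9 and 11126.4 in DMSO (log2 fold change 3.5, adjusted p = 3.8e-06). Ccl9, a mouse chemokine that binds CCR1, read 1972.7 and 2039.2 with epoxomicin and 155.3 and 158.1 with E9, and its DMSO arrays read 869.6 and 919.7 (3.48, adjusted p = 7.9e-07). Its DMSO values lay between the groups, below both epoxomicin arrays. Ccl3, an inflammatory chemokine, had 10220.7 and 9918.3 with epoxomicin, against 5425.3 and 4831.9 with E9 (0.97). In the opposite direction, Cxcl10, an interferon-induced ligand of CXCR3, read 41.6 and 41.0 with epoxomicin and 91.9 and 93.6 with E9 (-0.82, adjusted p = 0.00021). Ccl5, a chemokine kept by memory CD8+ T cells, read 1000.1 and 807.6 with epoxomicin and 1224.2 and 1288.8 with E9 (-0.47), and without epoxomicin array 2 its adjusted p was 0.15.

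Among cytokines, Il2, the T cell growth factor, read 945.5 and 992.3 on the epoxomicin arrays, against 57.2 and 65.0 on the E9 arrays and 792.8 and 748.8 on the DMSO arrays (log2 fold change 3.52, SE 0.075, adjusted p = 9.2e-07). Ifng, the effector cytokine interferon gamma, had 7753.6 and 7547.7 with epoxomicin and 882.2 and 574.9 with E9, while DMSO arrays read 4501.5 and 4643.1 (3.38, SE 0.17, adjusted p = 2.5e-05). Neither gene came near an overlap between the groups, and a further probe of Ifng passed in the same direction. Il3, a haematopoietic growth factor, read 276.9 and 252.7 with epoxomicin and was not above background on either E9 array, which makes it at least 4.82-fold higher with epoxomicin (adjusted p = 3.8e-06). This bound, and those below, set the bright group against the lowest signal above background in the dim group. The 4 lower cytokines included Il16, a secreted ligand of CD4, with 367.6 and 343.6 on the epoxomicin arrays, against 659.0 and 650.7 on the E9 arrays (-0.84, adjusted p = 0.00025, probe mean -0.45). They also included 2 members of the interleukin-6 family. Lif read 78.3 and 73.4 with epoxomicin and 143.6 and 116.8 with E9 (-0.61), and Osm 366.0 and 315.4 with epoxomicin and 577.7 and 463.9 with E9 (-0.57, probe mean -0.35). Without epoxomicin array 2 the adjusted p was 0.057 for Lif and 0.14 for Osm.

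**Figure D2:**
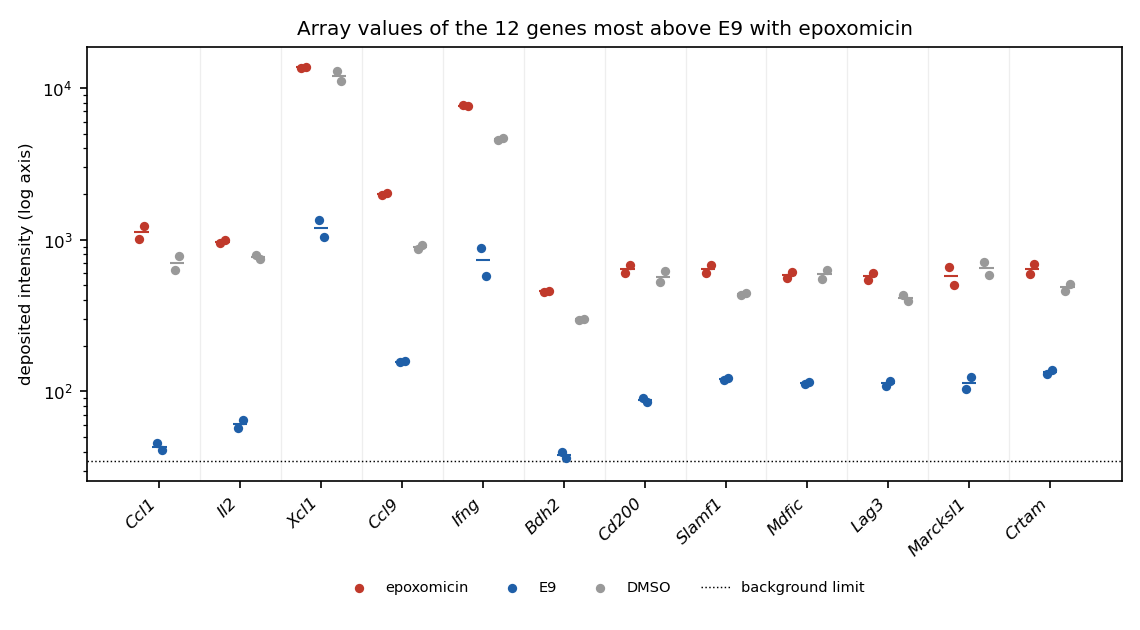
Deposited intensities (log axis) on each array for the 12 genes most above E9 with epoxomicin, with epoxomicin in red, E9 in blue and DMSO in grey; short bars are means of 2 arrays and the dotted line is the background limit of 34.5. In every one of the 12 both epoxomicin arrays and both DMSO arrays lie above both E9 arrays, as for Xcl1 with 13489.3 and 13794.5 in epoxomicin against 1337.5 and 1047.7 in E9.

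Surface receptors that tune T cell activation split between the treatments. Of 15 measured checkpoint and CD28 family genes, 7 were higher and 4 lower with epoxomicin (median log2 fold change 0.26). The counts were 6 and 2 without epoxomicin array 1 and 5 and 1 without array 2. Cd200, the ligand of an inhibitory receptor on myeloid cells, read 598.6 and 681.6 with epoxomicin and 90.2 and 84.9 with E9 (2.55, adjusted p = 3.8e-06), and both of its further probes passed in the same direction. Lag3, an inhibitory receptor for MHC class II, had 544.2 and 603.7 with epoxomicin, against 107.7 and 117.6 with E9 (2.12, adjusted p = 6.9e-06). Cd160, a receptor for the TNF receptor family member HVEM, read 795.6 and 930.3 with epoxomicin and 301.2 and 263.8 with E9 (1.53). All epoxomicin arrays of these genes lay above all their E9 arrays by more than the spread within either group. The adhesion receptor Crtam had 591.4 and 690.0 with epoxomicin, against 129.3 and 137.4 with E9 (2.06), and the costimulatory receptor Cd226 193.1 and 229.8 with epoxomicin, against 100.9 and 97.1 with E9 (0.92). Havcr2, which encodes the inhibitory receptor TIM-3, read 107.5 and 111.1 with epoxomicin and 70.5 and 72.3 with E9 (0.48, adjusted p = 0.0032). The founding members of the CD28 family were lower with epoxomicin. Cd28 itself read 529.1 and 547.7 with epoxomicin and 861.3 and 811.7 with E9 (-0.61, adjusted p = 0.0012). Ctla4, its inhibitory counterpart, read 252.3 and 218.3 with epoxomicin and 326.1 and 338.5 with E9 (-0.46), with an adjusted p of 0.103 without epoxomicin array 2, and it was brighter in DMSO, at 543.4 and 443.3. Of 8 measured SLAM family genes 2 were higher and none lower with epoxomicin (25%, beside 11.4% of all genes called). Slamf1, a self-ligand receptor, had 601.7 and 684.8 with epoxomicin and 119.4 and 121.9 with E9 (2.19), while the call of Slamf7 (0.50) was lost without epoxomicin array 1, at an adjusted p of 0.22, leaving 1 higher gene, and without E9 array 2 there were 3 higher and 1 lower.

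The TNF superfamily, whose members prolong T cell responses after CD28 signalling, had 7 of 16 measured genes higher and 1 lower with epoxomicin (median log2 fold change 0.14). Tnfrsf4, which encodes OX40, read 1152.6 and 1223.5 with epoxomicin and 312.6 and 228.5 with E9, and its DMSO arrays read 1452.5 and 1603.0 (2.05, adjusted p = 6.2e-05). Tnfsf14, which encodes LIGHT, had 687.3 and 685.5 with epoxomicin, against 139.3 and 154.5 with E9 (2.05, adjusted p = 6e-06, probe mean 1.13). Tnfsf11, which encodes RANKL, read 214.7 and 234.7 with epoxomicin and 46.1 and 56.5 with E9 (1.70). Both epoxomicin arrays of all 3 genes were far above both E9 arrays. Tnfsf8, the ligand of CD30, read 467.3 and 428.5 with epoxomicin and 165.9 and 159.2 with E9 (1.33), and Tnfrsf9, which encodes 4-1BB, 1071.8 and 927.5 with epoxomicin and 579.7 and 504.2 with E9 (0.85). The lower gene was Tnfrsf26, a mouse relative of the TNF receptors, with 75.9 and 56.4 with epoxomicin, against 143.3 and 182.6 with E9 (-1.04, adjusted p = 0.0019).

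Transcription factors that respond to the antigen receptor differed in part. Of 22 measured genes 7 were higher and 2 lower with epoxomicin, with a median log2 fold change of 0.0084. The counts were 3 and 1 without epoxomicin array 1, 5 and 1 without epoxomicin array 2 and 6 and 3 without E9 array 2. Nr4a2, an orphan nuclear receptor induced by receptor signalling, read 238.5 and 259.4 with epoxomicin and 61.2 and 57.2 with E9 (1.69, adjusted p = 1.3e-05). The zinc finger factors Egr2 and Egr3 were also higher. Egr2 had 1587.7 and 1533.8 with epoxomicin, against 733.6 and 618.9 with E9 (1.18), and Egr3 had 1258.4 and 1093.1 with epoxomicin, against 643.7 and 632.3 with E9 (0.85, probe mean 0.48). Irf4, a factor whose level follows receptor strength, read 1742.0 and 1665.5 with epoxomicin and 1190.2 and 1257.1 with E9 (0.47), and without epoxomicin array 1 its adjusted p was 0.062. Fosb, a subunit of AP-1, went the other way, with 61.1 and 48.4 with epoxomicin and 116.9 and 131.6 with E9 (-0.90, adjusted p = 0.0008). Of 11 measured feedback genes of the MAP kinases 4 were higher and 3 lower, against 1 and 2 without epoxomicin array 1, 1 and none without epoxomicin array 2 and 2 and 3 without E9 array 2. The phosphatase Dusp4 read 460.5 and 465.5 with epoxomicin and 172.6 and 176.1 with E9 (1.29, adjusted p = 2.6e-05, probe mean 0.57), while the phosphatase Dusp10 (-0.56) lost its call without epoxomicin array 2, at an adjusted p of 0.087.

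NF-kB subunits and targets had 11 of 20 measured genes higher and none lower with epoxomicin, and their median log2 fold change was 0.39. The count was 8 without either epoxomicin array. Cd83, a surface protein of activated lymphocytes, read 381.0 and 365.4 with epoxomicin, against 71.4 and 70.5 with E9, and its DMSO arrays read 399.0 and 380.4 (2.05, adjusted p = 3.8e-06). Rel, the subunit c-Rel, had 178.1 and 194.9 with epoxomicin and 71.3 and 76.8 with E9 (1.09), and Nfkb2, the precursor of the p52 subunit, 278.8 and 255.3 with epoxomicin and 135.0 and 139.2 with E9 (0.85). Nfkbia, the inhibitor that the proteasome removes and that NF-kB itself induces, read 466.1 and 433.4 with epoxomicin and 202.7 and 272.8 with E9 (0.86, adjusted p = 0.0035). In all of these the DMSO arrays also read above both E9 arrays. The survival genes Bcl2l1 and Bcl2a1d belong to the same list. Bcl2l1 read 330.7 and 326.8 with epoxomicin and 150.4 and 149.8 with E9 (1.01), and Bcl2a1d, which has close paralogs in the mouse, 4511.1 and 4992.1 with epoxomicin and 2128.2 and 2077.1 with E9 (1.16). Bcl2, another survival gene, was lower with epoxomicin, at 946.6 and 746.2 with epoxomicin, against 1660.5 and 2084.7 with E9 (-1.12, adjusted p = 0.0017). No other of the 13 measured BCL2 family genes was called, a called share of 23.1%, beside 11.4% of all genes.

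Receptors and feedback genes of cytokine signalling that use the common gamma chain and STAT factors had 1 of 19 measured members higher and 5 lower with epoxomicin (median log2 fold change -0.22). Without either epoxomicin array 3 were lower, and without E9 array 2 there were 2 higher and 6 lower. The higher gene was Stat5a, a transcription factor activated by IL-2 and IL-7, with 538.2 and 618.7 with epoxomicin, against 165.1 and 191.5 with E9 and 606.7 and 738.0 with DMSO (1.57, adjusted p = 5.7e-05). Socs2 and Socs3, feedback inhibitors that STAT factors induce, were lower. Socs2 read 282.9 and 242.5 with epoxomicin and 841.9 and 921.1 with E9 (-1.66), and Socs3 185.4 and 155.5 with epoxomicin and 375.1 and 352.2 with E9 (-0.99). Both DMSO arrays of Socs2, at 423.2 and 412.8, lay between the groups. Il7r, the IL-7 receptor chain that marks memory precursors, had 185.6 and 169.9 with epoxomicin, against 389.6 and 412.4 with E9 (-1.07, adjusted p = 9.9e-05, probe mean -0.41), and 1 of its 4 further probes passed in the same direction. Il2ra, the high-affinity IL-2 receptor chain, read 978.9 and 874.7 with epoxomicin and 716.4 and 934.8 with E9, so that its groups overlapped (0.17, SE 0.12, adjusted p = 0.49), and without E9 array 2 its adjusted p was 0.028 (0.36).

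Genes of the T cell receptor complex and its proximal signalling had 2 of 19 measured members higher and 6 lower with epoxomicin (median log2 fold change -0.13). The counts were 1 and 4 without epoxomicin array 1 and 1 and 3 without array 2. Cd2, an adhesion receptor, read 482.4 and 434.1 with epoxomicin and 1286.0 and 1209.6 with E9 (-1.40, adjusted p = 3.9e-05). Trat1, an adaptor of the receptor complex, had 199.3 and 235.8 with epoxomicin, against 495.9 and 570.4 with E9 (-1.20). Cd8b1, the beta chain of the CD8 coreceptor, was bright on every array, with 4946.9 and 4862.7 with epoxomicin and 7588.1 and 7516.0 with E9 (-0.62, adjusted p = 0.0008). Epoxomicin arrays of these 3 genes were lower than E9 arrays by more than the spread within either group. Zap70, the kinase that binds the phosphorylated receptor, was higher, with 1941.3 and 1931.4 on the epoxomicin arrays, against 1396.0 and 1309.9 on the E9 arrays (0.51, adjusted p = 0.0029). Of the CD3 chains, Cd247 (-0.49) had an adjusted p of 0.056 without epoxomicin array 2, and Cd3g (-0.49) one of 0.064 and 0.114 without the first or the second epoxomicin array.

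Transcription factors of effector and memory fate split evenly, with 4 of 17 higher and 4 lower and a median log2 fold change of 0.00. Without epoxomicin array 2, 2 were lower. Zeb2, a repressor that favours terminal effector cells, read 170.4 and 171.7 with epoxomicin, against 39.8 and 40.5 with E9 and 143.4 and 151.4 with DMSO (1.58, adjusted p = 1e-05). Foxp1, a guardian of quiescence, had 383.7 and 424.8 with epoxomicin and 192.7 and 197.8 with E9 (0.96, probe mean 0.62), and Bach2, which restrains effector genes, 1170.6 and 1199.8 with epoxomicin and 720.0 and 663.5 with E9 (0.76). The genes higher with epoxomicin thus included factors assigned in textbooks to effector cells and to restraint of them. Gata3 also read higher, at 232.5 and 198.9 on the epoxomicin arrays, against 110.3 and 133.4 on the E9 arrays (0.71). Among the lower genes, the chromatin organiser Satb1 read 4466.1 and 3946.7 with epoxomicin and 9680.2 and 8728.4 with E9 (-1.13, adjusted p = 0.0002), and Id2, which supports effector cell survival, 348.5 and 338.1 with epoxomicin and 620.1 and 743.1 with E9 (-0.93). Eomes, a T-box factor of memory cells, had 1041.9 and 995.6 with epoxomicin, against 1429.4 and 1627.2 with E9 (-0.57), and its adjusted p without epoxomicin array 2 was 0.051. Tbx21, the T-box factor T-bet, read 266.4 and 243.2 with epoxomicin and 173.7 and 221.7 with E9, a difference that did not pass (0.34, SE 0.11, adjusted p = 0.098), although it passed without E9 array 2, at an adjusted p of 0.0040 (0.49).

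Genes for lamins, vimentin, annexins and S100 proteins had 15 of 22 measured members lower and none higher with epoxomicin, and their median log2 fold change was -0.70. Lmna, the nuclear lamin A and C, read 41.8 and 38.5 with epoxomicin, against 509.9 and 432.5 with E9 and 39.3 and 43.5 with DMSO (-2.91, SE 0.089, adjusted p = 3.8e-06, probe mean -1.92), and 4 of its 5 further probes passed in the same direction. Vim, the intermediate filament vimentin, had 104.0 and 94.2 with epoxomicin and 850.8 and 734.3 with E9, while DMSO arrays read 179.5 and 158.9 (-2.71, adjusted p = 3.8e-06). Both genes were dim with epoxomicin and bright with E9. Anxa2, a calcium-dependent membrane-binding annexin, read 674.3 and 469.8 with epoxomicin and 1823.7 and 1568.6 with E9 (-1.54, SE 0.15), and its DMSO arrays, at 1284.4 and 1195.0, were nearer to E9. Anxa3 had 132.4 and 128.8 with epoxomicin, against 441.1 and 394.1 with E9 and 70.1 and 73.6 with DMSO (-1.5). S100a13, a small calcium-binding protein, read 350.6 and 335.7 with epoxomicin and 980.4 and 1095.4 with E9 (-1.53), and the galectin Lgals1 244.1 and 258.1 with epoxomicin and 655.5 and 785.2 with E9 (-1.43). The order of DMSO and epoxomicin was therefore not the same in these genes. None of 10 measured tubulins was called; Tubb6 (-0.28) and Tubg1 (0.26) had the smallest p, with adjusted p of 0.21 and 0.12, and Tubg1 was called without E9 array 1, at 0.012.

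**Figure D3:**
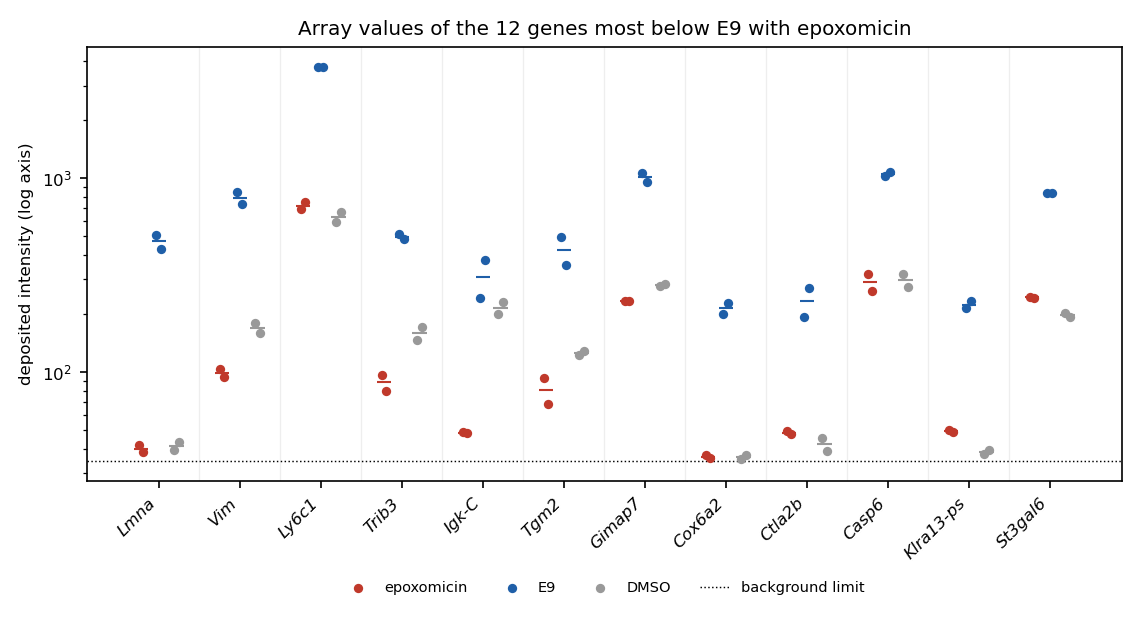
Deposited intensities (log axis) on each array for the 12 genes most below E9 with epoxomicin, with epoxomicin in red, E9 in blue and DMSO in grey; short bars are means of 2 arrays and the dotted line is the background limit of 34.5. Both E9 arrays lie above both epoxomicin arrays in every one of the 12, as for Vim with 104.0 and 94.2 in epoxomicin against 850.8 and 734.3 in E9.

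Homing and memory surface genes had 1 of 19 measured members higher and 10 lower with epoxomicin (median log2 fold change -0.28). None was higher without epoxomicin array 1, and 2 were without E9 array 1. Ly6c1, a surface protein of memory-type CD8+ T cells whose probe may also read its close paralog, had 694.2 and 748.8 with epoxomicin, against 3722.4 and 3754.8 with E9 and 590.3 and 671.2 with DMSO (-2.33, adjusted p = 3.8e-06). Ly6e, of the same family, read 977.1 and 916.3 with epoxomicin and 2552.1 and 2493.3 with E9 (-1.39). Itgb7, the integrin chain used for gut homing, had 196.9 and 183.9 with epoxomicin, against 478.1 and 509.9 with E9 (-1.27, adjusted p = 4.3e-05). In each of these the epoxomicin and DMSO arrays were much closer to each other than to E9. Its partner Itgae, the CD103 chain, read 72.2 and 70.0 with epoxomicin and 145.9 and 168.6 with E9 (-0.92, probe mean -0.49). Klf2, a factor that maintains lymph node homing receptors, had 145.5 and 143.4 with epoxomicin and 298.9 and 358.4 with E9, and its DMSO arrays, at 80.7 and 86.7, were below both groups (-1.05). Cd44, the adhesion receptor that marks antigen-experienced T cells, read 763.7 and 907.3 with epoxomicin and 1402.3 and 1152.2 with E9 (-0.60, probe mean -0.26). Its adjusted p was 0.015 with all 4 arrays and 0.12 without epoxomicin array 1, and 2 of its 7 further probes passed in the same direction.

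NK type lectin receptors, which memory CD8+ T cells share with NK cells, had 6 of 9 measured members lower and none higher with epoxomicin (median log2 fold change -0.51), and 4 were lower without either epoxomicin array. Klrd1, the CD94 chain, read 988.0 and 986.2 with epoxomicin, against 2422.6 and 2798.4 with E9 and 735.3 and 782.2 with DMSO (-1.38, adjusted p = 5.7e-05). Among Ly49 receptors, whose probes may cross-react between close paralogs, Klra7 had 107.0 and 98.5 with epoxomicin and 258.2 and 265.8 with E9 (-1.16, probe mean -0.69), and Klra3 84.5 and 92.3 with epoxomicin and 167.5 and 190.0 with E9 (-0.84). Klre1 read 96.6 and 105.8 with epoxomicin and 175.1 and 179.7 with E9 (-0.68, adjusted p = 0.00077). These levels were higher on both E9 arrays in every case. The Ly49 pseudogene Klra13-ps belonged to the 12 lowest genes, with 50 and 49.1 on the epoxomicin arrays, against 213.9 and 231.0 on the E9 arrays (-1.72). Of the 8 NK cell markers 4 were measured, their summed intensity was 273.3 and 275.0 with epoxomicin, against 510.0 and 526.3 with E9, and their part in the difference was not tested. Of the defining NK cell genes, Ncr1 was not above background on 2 arrays and Klrb1c read 34.9 and 34.1 with epoxomicin and 34.7 and 32.9 with E9, beside a background limit of 34.5.

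GIMAP genes, lymphocyte GTPases linked to T cell survival, had 4 of 7 measured members lower and none higher with epoxomicin (median log2 fold change -0.48), and 2 without epoxomicin array 1. Gimap7 read 231.8 and 230.9 with epoxomicin, against 1061.6 and 959.7 with E9 and 278.3 and 284.2 with DMSO (-2.01, adjusted p = 6.8e-06). Gimap8 had 572.3 and 615.8 with epoxomicin and 923.4 and 930.0 with E9 (-0.62, adjusted p = 0.0012). Gimap6 (-0.68) had an adjusted p of 0.107 without epoxomicin array 1.

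Genes induced by interferons were mostly lower with epoxomicin, although Ifng itself was higher. Guanylate-binding proteins and IRG GTPases, which defend cells against intracellular pathogens, had 9 of 11 measured members lower and none higher (median log2 fold change -0.77). Gbp2, whose promoter is shown above, read 2073.8 and 1906.7 with epoxomicin, against 5239.5 and 4874.8 with E9 and 3010.2 and 3223.6 with DMSO (-1.33, adjusted p = 4.4e-05). Tgtp1, an IRG GTPase with a near-identical neighbour, had 71.0 and 67.8 with epoxomicin and 179.5 and 180.0 with E9 (-1.11). Gbp7 (-0.99), Irgm2 (-0.97) and Igtp (-0.93) of the same families were lower as well. In Gbp2 and Tgtp1 both DMSO arrays lay between the groups. Of 29 other interferon-stimulated genes 16 were lower and 2 higher (median -0.33), and 10 lower and 1 higher without epoxomicin array 2. Ifi27 read 633.4 and 621.5 with epoxomicin and 1837.8 and 1774.7 with E9 (-1.49, adjusted p = 1.5e-05), and Usp18, a brake on interferon receptor signalling, 122.0 and 129.4 with epoxomicin and 361.4 and 334.9 with E9 (-1.30). Ifit3, an antiviral RNA-binding protein, had 50.2 and 50.9 with epoxomicin and 132.3 and 161.3 with E9, and DMSO arrays, at 41.6 and 42.4, were below both groups (-1.17, probe mean -0.68). Ifitm2, a membrane protein that restricts virus entry, was higher, with 120.5 and 155.4 with epoxomicin against 44.7 and 43.7 with E9 (1.22, adjusted p = 0.00028).

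The antigen-processing genes that interferon gamma induces moved in the same direction. Of 5 measured immunoproteasome and PA28 genes 3 were lower and none higher with epoxomicin (median log2 fold change -0.52). Psmb10, a catalytic subunit, read 736.5 and 730.5 with epoxomicin, against 1614.4 and 1307.9 with E9 and 717.4 and 701.2 with DMSO (-0.96, adjusted p = 0.00078). The other called catalytic subunits were Psmb8, with 2336.2 and 2240.4 on the epoxomicin arrays, against 3269.9 and 3464.6 on the E9 arrays (-0.55, adjusted p = 0.0021), and Psmb9, with 1450.4 and 1358.8 on the epoxomicin arrays, against 1956.8 and 2088.4 on the E9 arrays (-0.52), whose adjusted p was 0.051 without epoxomicin array 2. Of 15 measured MHC class I and peptide loading genes 6 were lower and none higher (median -0.30), and all 15 had a log2 fold change under 0. Without either epoxomicin array 3 of them were lower, and without E9 array 2, 9 were. Tapbpl, a peptide editor, read 502.8 and 539.7 with epoxomicin and 764.3 and 856.5 with E9 (-0.61, probe mean -0.36). Nlrc5, the transactivator of MHC class I genes, had 283.2 and 282.0 with epoxomicin, against 442.9 and 426.1 with E9 (-0.58, adjusted p = 0.0012), and the nonclassical molecule H2-M3 223.6 and 225.5 with epoxomicin, against 332.6 and 364.9 with E9 (-0.58). H2-D1, a classical class I molecule, was lower by less (-0.40), and its adjusted p was 0.052 and 0.113 without the first or the second epoxomicin array.

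**Figure D4:**
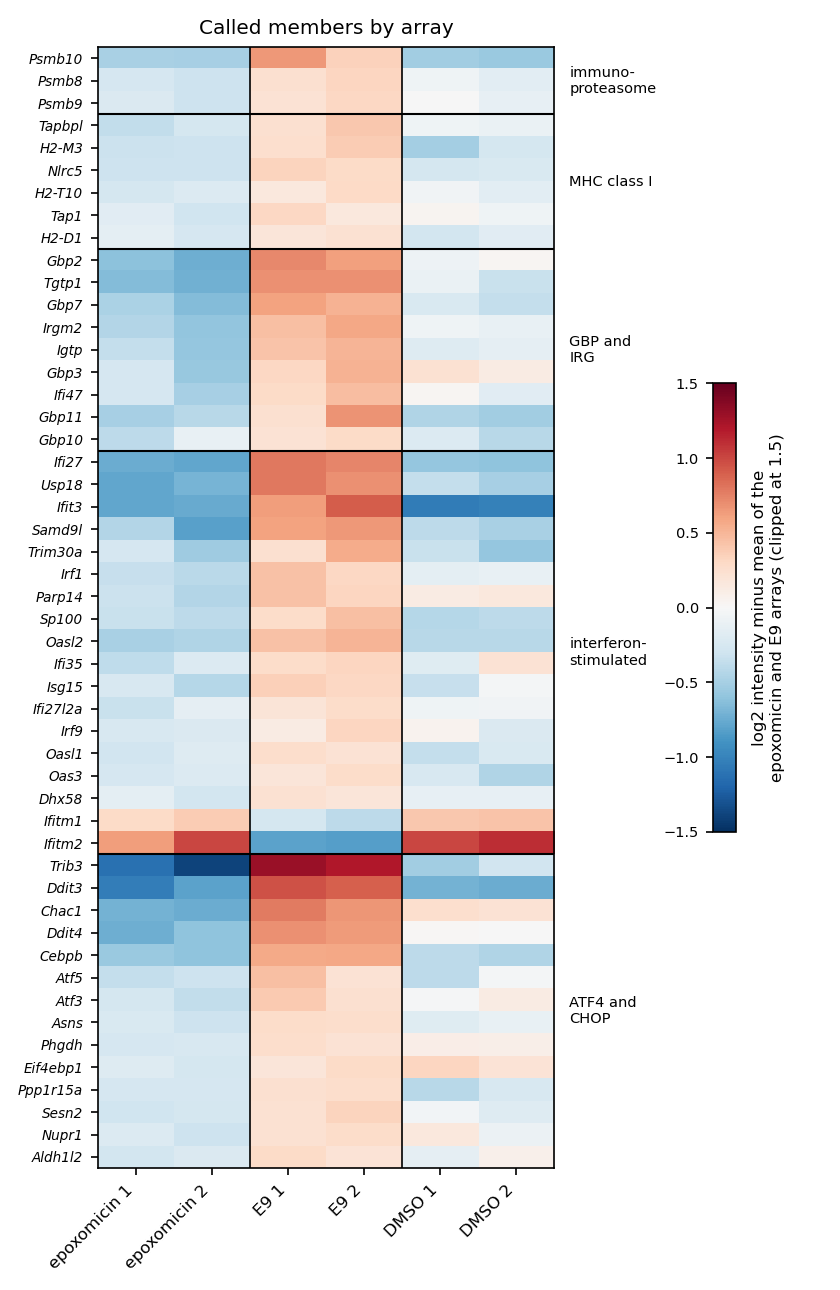
Log2 intensity of the 50 called members of 5 gene lists (rows) on each array (columns, epoxomicin, E9, then DMSO), less the mean of the 4 epoxomicin and E9 arrays, with colours clipped at 1.5. In all rows but Ifitm1 and Ifitm2 both E9 arrays are above both epoxomicin arrays, while DMSO arrays vary between rows, from the low values of Ifit3 (41.6 and 42.4) to those of Eif4ebp1 (1189.4 and 1130.2 in epoxomicin, 1539.0 and 1658.6 in E9 and 1705.6 and 1564.0 in DMSO).

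Stress genes differed by branch. Of 20 measured targets of ATF4 and CHOP, the factors that answer amino acid shortage and unfolded proteins, 14 were lower and none higher with epoxomicin, and the median log2 fold change was -0.45. Without either epoxomicin array 9 were lower. Trib3, a pseudokinase that restrains this response, read 96.5 and 80.1 with epoxomicin, against 514.5 and 482.7 with E9 and 145.8 and 171.0 with DMSO (-2.20, SE 0.087, adjusted p = 9.3e-06, probe mean -1.16), and both of its further probes passed in the same direction. Ddit3, which encodes CHOP, had 63.7 and 74.7 with epoxomicin and 252.9 and 242.6 with E9 (-1.53, adjusted p = 2.8e-05). Chac1, a glutathione-degrading enzyme whose promoter is shown above, read 101.4 and 99.1 with epoxomicin and 285.4 and 262.7 with E9, with DMSO arrays at 197.1 and 193.1 (-1.25). Both E9 arrays of these genes were above the other 4 arrays. Ddit4, an inhibitor of mTORC1, had 229.3 and 250.6 with epoxomicin and 611.8 and 592.3 with E9 (-1.24), and Cebpb, a partner of these factors, 430.6 and 416.9 with epoxomicin and 938.8 and 941.2 with E9 (-1.10). Atf5 (-0.58) lost its call without epoxomicin array 1, at an adjusted p of 0.052.

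The unfolded protein response of the endoplasmic reticulum had 3 of 20 measured members lower and none higher with epoxomicin (median log2 fold change -0.17). This was a called share of 15%, beside 11.4% of all genes. Without either epoxomicin array 2 were lower, and without the first or the second E9 array 5 and 6 were. Xbp1, its main transcription factor, read 1315.8 and 1204.4 with epoxomicin, against 2908.1 and 2654.9 with E9 and 1285.5 and 1254.0 with DMSO (-1.13, adjusted p = 0.00012). Herpud1, which serves degradation at the endoplasmic reticulum, had 1109.2 and 1053.5 with epoxomicin and 1685.6 and 1545.9 with E9 (-0.57). Sel1l, of the same machinery (-0.35, probe mean -0.22 with an adjusted p of 0.077), had an adjusted p of 0.082 and 0.185 without the first or the second epoxomicin array. NRF2 targets and metallothioneins went both ways, with 3 of 17 higher and 4 lower, and 2 each way without epoxomicin array 2. Mt1, a zinc-binding metallothionein, read 2587.9 and 2201.5 with epoxomicin and 1181.3 and 970.4 with E9 (1.14, adjusted p = 0.00063), and Srxn1, a repair enzyme of peroxiredoxins, 70.4 and 81.9 with epoxomicin and 37.4 and 34.7 with E9 (0.72). The lower genes included Sqstm1, the autophagy receptor p62, with 357.3 and 360.8 on the epoxomicin arrays, against 603.3 and 570.9 on the E9 arrays (-0.67), and Nfe2l2, which encodes NRF2, with 90.7 and 85.4 on the epoxomicin arrays, against 135.9 and 133.6 on the E9 arrays (-0.50, adjusted p = 0.0029).

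Few genes of the constitutive proteasome were called. Of 11 measured genes of the 20S core 1 was higher and none lower with epoxomicin (median log2 fold change 0.019), and of 16 genes of the 19S regulator none was called (median -0.019). The 20S call was lost without either epoxomicin array and without E9 array 1, and without E9 array 2 there were 2 higher 20S genes and 2 higher and 1 lower 19S genes, while without epoxomicin array 2 there was 1 lower 19S gene. Psmb5, the catalytic subunit that epoxomicin blocks most readily, read 1081.8 and 1053.9 with epoxomicin and 831.2 and 875.1 with E9 (0.32, SE 0.068, adjusted p = 0.024), and its adjusted p was 0.19 and 0.14 without the first or the second epoxomicin array and 0.053 without E9 array 1. Psmd4, a ubiquitin receptor of the regulator, had 2170.8 and 2213.0 with epoxomicin and 2695.4 and 2229.2 with E9, a difference that did not pass (-0.16, SE 0.096, adjusted p = 0.39) except without E9 array 2, at an adjusted p of 0.038. Of 13 measured genes for proteasome assembly and ubiquitin supply 2 were higher, Uchl5 (0.33) and Psmg1 (0.29). Both calls were lost without either epoxomicin array and without E9 array 1, where Uchl5 had an adjusted p of 0.101 and Psmg1 one of 0.053, while without E9 array 2 there were 5 higher and 1 lower. Of 17 measured chaperones 2 were higher (median 0.12), against none and 1 without the first or the second epoxomicin array. The cochaperone Bag3 read 197.1 and 174.8 with epoxomicin and 121.3 and 98.0 with E9 (0.65), with an adjusted p of 0.059 without epoxomicin array 1. The chaperone Hsph1 (0.34) had an adjusted p of 0.29 without epoxomicin array 1, 0.080 without epoxomicin array 2 and 0.084 without E9 array 2, where 5 chaperones were called higher. The stress genes Hspa1b and Hmox1 were not above background on 2 arrays. The called share was 9.09% for the 20S core, 15.4% for assembly and ubiquitin supply and 11.8% for chaperones, beside 11.4% of all genes.

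**Figure D5:**
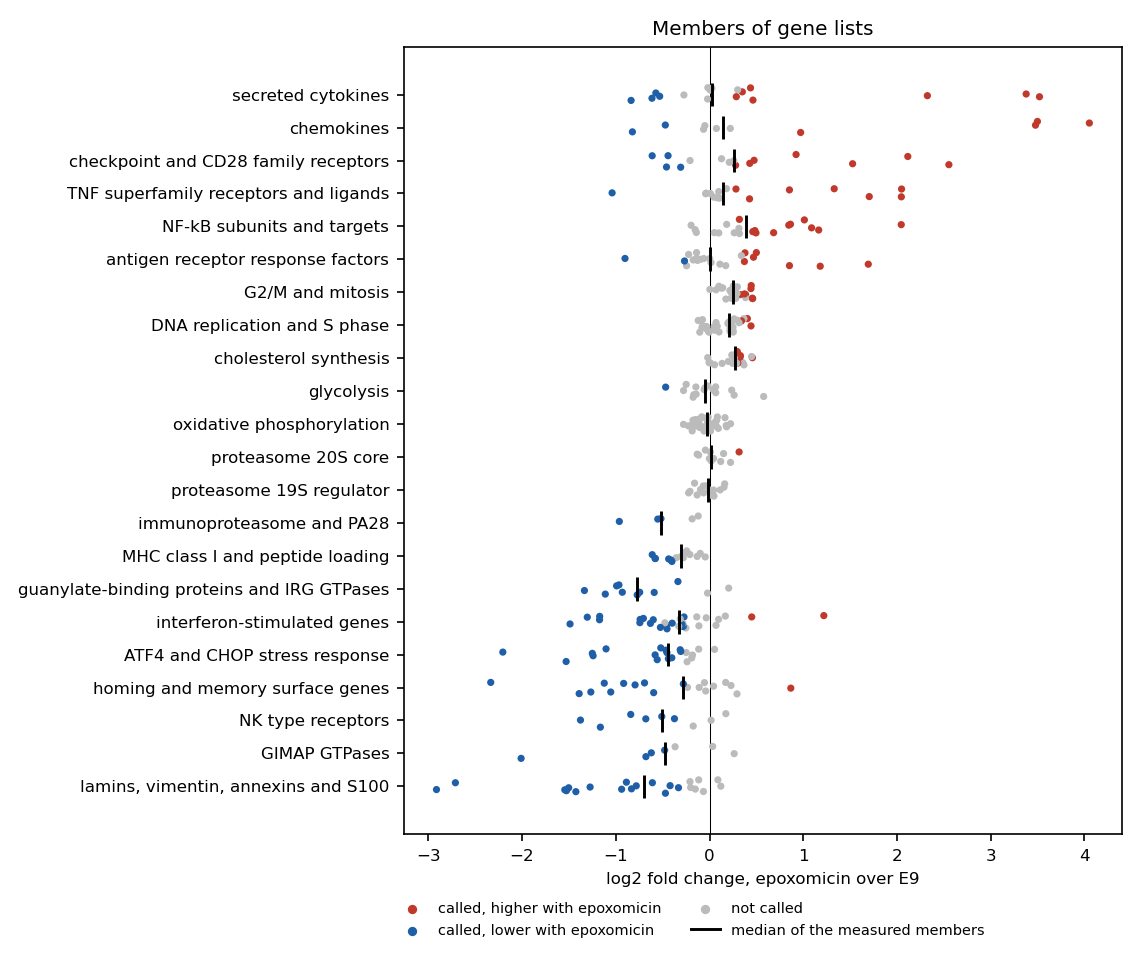
Each point is 1 measured member of 1 of 22 gene lists, placed by its log2 fold change of epoxomicin over E9, in red where called higher, blue where called lower and grey where not called; the vertical bar is the median of the list. Members of the NF-kB list lie mostly to the right (median 0.39) and those of the lamin, vimentin, annexin and S100 list mostly to the left (median -0.70), while proteasome 20S genes and oxidative phosphorylation genes lie around 0.

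Over 9 metabolic lists 16 of 149 measured genes (10.7%) were called, 11 higher and 5 lower with epoxomicin, beside 11.4% of all genes. None of 34 measured oxidative phosphorylation genes, 7 pentose phosphate genes or 11 amino acid transporters was called, with median log2 fold changes of -0.026, -0.025 and -0.029. Without E9 array 1 there were 2 lower oxidative phosphorylation genes, 1 higher pentose phosphate gene and 1 higher and 2 lower transporters, and without E9 array 2 there were 1 higher and 1 lower oxidative phosphorylation gene and 1 higher transporter. Of 16 measured glycolysis genes 1 was called. Pfkp, a phosphofructokinase, was lower (-0.47), and that call was lost without either epoxomicin array, with adjusted p of 0.165 and 0.239, and without E9 array 1, with 0.057. Other glycolysis genes passed in each fit that left out an E9 array and in the fit without epoxomicin array 1. Ldha, the lactate dehydrogenase of glycolytic cells, read 11043.5 and 10921.9 with epoxomicin and 11747.9 and 10965.9 with E9 (-0.047, SE 0.070, adjusted p = 0.78), and the glucose transporter Slc2a1 1590.6 and 1529.7 with epoxomicin and 1915.2 and 1624.6 with E9 (-0.17, SE 0.090, adjusted p = 0.31). The groups overlapped for Ldha and not for Slc2a1, which passed without E9 array 2, at an adjusted p of 0.043. Of 18 measured cholesterol synthesis genes 5 were higher and none lower with epoxomicin (median 0.28), and none was called without either epoxomicin array. Stard4, a sterol carrier, had the largest difference of them, with 554.3 and 572.5 with epoxomicin, against 436.3 and 372.4 with E9 (0.46, adjusted p = 0.013, and 0.087 and 0.114 in those fits). Of 12 measured fatty acid synthesis genes 3 were higher, and 2 and 1 without the first or the second epoxomicin array. Scd1, a desaturase that makes oleate, read 121.0 and 117.6 with epoxomicin and 47.5 and 38.3 with E9, with DMSO arrays at 135.4 and 153.1 (1.08, adjusted p = 0.00017). Its paralog Scd2 (0.56) had an adjusted p of 0.074 without epoxomicin array 2. Of 14 fatty acid oxidation genes 2 were higher and 1 lower, of 19 genes of the tricarboxylic acid cycle 1 was higher and 1 lower, and of 18 aminoacyl-tRNA synthetases 2 were lower, led by Wars with 445.4 and 459.6 on the epoxomicin arrays, against 750.9 and 665.0 on the E9 arrays (-0.62, adjusted p = 0.0022, probe mean -0.41). Without epoxomicin array 1 none of the oxidation or cycle genes was called, and without epoxomicin array 2 there were 2 higher oxidation genes, no cycle gene and 1 lower synthetase. Without E9 array 2 there were 3 higher and 1 lower oxidation genes, 2 higher cycle genes and 1 higher and 2 lower synthetases. Outside these lists, Bdh2, a cytosolic hydroxybutyrate dehydrogenase, was the sixth of the 12 highest genes, with 454.7 and 459.9 with epoxomicin, against 39.9 and 36.2 with E9 and 296.5 and 301.3 with DMSO (2.92, adjusted p = 1.2e-06). Cox6a2, a muscle-type subunit of cytochrome oxidase, read 37.2 and 35.9 with epoxomicin and 197.9 and 226.7 with E9, and near the background limit in DMSO, at 35.3 and 37.2 (-1.93).

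The called genes of mitosis, DNA replication and ribosome biogenesis were all higher with epoxomicin. Of 25 measured genes of G2/M and mitosis 7 were higher and none lower, with a median log2 fold change of 0.25 and all 25 above 0. Of 33 measured genes of DNA replication 3 were higher and none lower (median 0.21), and of 27 genes of ribosome biogenesis and nucleotide synthesis 2 were higher (median 0.15). The called share was 28% for mitosis, 9.09% for replication, 7.41% for biogenesis and 3.45% for the ribosomal protein genes below, beside 11.4% of all genes. By the mean of all kept probes the called genes Cdc20, Cenpf and Rrm1 did not pass, with adjusted p of 0.057, 0.12 and 0.17. None of these lists kept a call without epoxomicin array 1. Without epoxomicin array 2 there were 2 mitosis, 1 replication and no biogenesis genes, while there were 12, 9 and 3 without E9 array 1 and 8, 7 and 3 without E9 array 2. Mki67, a marker of dividing cells, read 354.9 and 296.1 with epoxomicin, against 233.6 and 230.2 with E9 and 382.2 and 385.4 with DMSO (0.44, adjusted p = 0.019). Cdk1, the mitotic kinase, had 532.0 and 555.8 with epoxomicin and 407.7 and 412.8 with E9 (0.39), but its 1 further probe did not pass and the mean of both did not either (0.18, adjusted p = 0.10), and the histone variant Cenpa 814.2 and 854.5 with epoxomicin and 644.7 and 559.8 with E9 (0.46). Mcm10, a replication factor, read 1241.8 and 1323.5 with epoxomicin and 1001.2 and 875.8 with E9 (0.44). All these differences were under 2-fold, and without epoxomicin array 1 the adjusted p was 0.14 for Mki67, 0.065 for Cdk1, 0.072 for Cenpa and 0.070 for Mcm10. Without epoxomicin array 2 it was 0.106 for Cdk1, 0.113 for Cenpa and 0.130 for Mcm10. Myc, the growth regulator, read 202.3 and 202.9 with epoxomicin and 180.8 and 178.7 with E9, which did not pass (0.15, SE 0.065, adjusted p = 0.21). Of 29 measured ribosomal protein genes Rps6 was the 1 called (-0.36), and its adjusted p was 0.29 without epoxomicin array 1, 0.116 without epoxomicin array 2 and 0.099 without E9 array 1, while without E9 array 2 there were 2 lower genes.

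Cytotoxic granule and killing genes had 2 of 16 measured members higher and 2 lower with epoxomicin, with none lower without either epoxomicin array and 1 higher without the second. Stx11, a fusion protein needed for granule release, read 732.0 and 657.3 with epoxomicin, against 191.4 and 183.5 with E9 and 772.9 and 781.0 with DMSO (1.76, adjusted p = 1.4e-05, probe mean 1.01). Prf1, the pore-forming perforin, had 2671.5 and 1918.1 with epoxomicin and 2093.0 and 1675.8 with E9, so that its groups overlapped (0.27, SE 0.16, adjusted p = 0.39). Nkg7, a granule membrane protein, was higher (0.42), with an adjusted p of 0.125 without epoxomicin array 2. The probe of Gzmb was not above background on 2 arrays, which bears on this probe only.

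Of 12 measured genes of necroptosis and death receptor signalling 2 were higher and 1 lower with epoxomicin, with 1 each way without epoxomicin array 2, and 2 higher and 4 lower without E9 array 2. With all 4 arrays the called share was 25%, beside 11.4% of all genes. Casp6, an executioner caspase outside this list, was among the 12 lowest genes, with 318.0 and 262.7 with epoxomicin, against 1021.5 and 1073.2 with E9 and 321.7 and 272.8 with DMSO (-1.77, adjusted p = 3.2e-05). Casp8, the initiator caspase of death receptors, read 470.1 and 477.2 with epoxomicin and 668.9 and 727.0 with E9 (-0.53), while the inflammatory caspase Casp4 had 84.3 and 86.5 with epoxomicin and 46.5 and 49.9 with E9 (0.59, probe mean 0.38). Cdkn1a, the cell cycle inhibitor p21, was lower, with 181.2 and 177.8 on the epoxomicin arrays, against 278.8 and 267.6 on the E9 arrays (-0.54, adjusted p = 0.0018). Cdkn1a and Phlda3 (0.61, probe mean 0.40) were the called genes among 18 measured p53 targets and cell cycle inhibitors (11.1%, beside 11.4% of all genes). Of 17 measured HIF targets the hypoxia gene Ndrg1 was called, 3 were lower without epoxomicin array 1, and 1 was higher without epoxomicin array 2 and without E9 array 1. Ndrg1 read lower, with 212.5 and 235.7 on the epoxomicin arrays, against 413.4 and 380.1 on the E9 arrays (-0.76, adjusted p = 0.00077). The called share of the HIF list was 5.88%, beside 11.4% of all genes.

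Glucocorticoid genes had 4 of 9 measured members lower and 1 higher with epoxomicin, and 3 lower and none higher without either epoxomicin array. Hsd11b1, the enzyme that regenerates active glucocorticoid, read 135.0 and 123.6 with epoxomicin, against 384.1 and 400.0 with E9 and 83.1 and 79.5 with DMSO (-1.43, adjusted p = 2.6e-05). The receptor's targets Sgk1 and Tsc22d3 were lower too. Sgk1 had 193.5 and 190.7 with epoxomicin and 549.8 and 579.5 with E9 (-1.44), and Tsc22d3, which encodes GILZ, 110.4 and 95.6 with epoxomicin and 207.7 and 216.1 with E9 (-0.89, probe mean -0.48). The target Fkbp5 (-0.25) had an adjusted p of 0.27 and 0.22 without the first or the second epoxomicin array and 0.060 and 0.086 without the first or the second E9 array, and Per1, another target, was higher (0.39), with 0.094 and 0.067 without the first or the second epoxomicin array. Surface glycan enzymes were split, with 2 of 11 measured sialyltransferases higher and 3 lower. There was 1 higher without either epoxomicin array or without E9 array 1, and 2 were lower without epoxomicin array 2. St3gal6, which builds selectin ligands, read 243.5 and 240.8 with epoxomicin and 833.5 on both E9 arrays (-1.68, adjusted p = 8.2e-06), and St3gal1, which caps core O-glycans, 99.7 and 106.0 with epoxomicin and 51.5 and 56.7 with E9 (0.69, probe mean 0.37). Among 13 tetraspanins 2 were higher and 2 lower (1 lower without either epoxomicin array), led by Tspan3 (0.66), with 495.9 and 525.7 on the epoxomicin arrays, against 315.4 and 312.6 on the E9 arrays, and Cd81 (0.66), with 186.5 and 181.0 on the epoxomicin arrays, against 120.1 and 95.3 on the E9 arrays. The called share of the tetraspanins was 30.8%. Of 25 measured autophagy and lysosome genes 4 were lower (16%, beside 11.4% of all genes called). Among them was the protease Ctss, with 191.0 and 172.5 on the epoxomicin arrays, against 326.8 and 389.9 on the E9 arrays (-0.89, adjusted p = 0.00089).

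The remaining genes of the 12 highest and 12 lowest belonged to no list. Mdfic, an inhibitor of transcription factors, read 561.0 and 616.1 with epoxomicin and 111.1 and 115.7 with E9 (2.14), and Marcksl1, an actin-binding protein, 656.3 and 499.7 with epoxomicin and 104.2 and 123.9 with E9 (2.10, SE 0.13, probe mean 0.88). Tgm2, a protein cross-linking transglutaminase, had 92.7 and 68.5 with epoxomicin, against 497.7 and 356.2 with E9 (-2.08, SE 0.16, adjusted p = 0.00017, probe mean -1.06), and its 1 further probe did not pass. Ctla2b, a protease inhibitor-like gene, read 49.4 and 47.6 with epoxomicin and 192.0 and 269.8 with E9 (-1.77). The lowest value of all genes belonged to a transcript carried on the array under the accession label AA467197, named here after its values were seen, with 87.3 and 78.5 with epoxomicin, against 965.2 and 1130.8 with E9 (-3.30). Some genes read above background in 1 treatment only. Apart from Il3, Idi2, an isopentenyl diphosphate isomerase, was at least 3.14-fold higher with epoxomicin, where it read 151.4 and 176.7, and Acsl6, an acyl-CoA synthetase, at least 2.18-fold higher, where it read 101.9 and 109.9. Car2, a carbonic anhydrase, was at least 1.95-fold lower with epoxomicin, with 97.7 and 85.7 on the E9 arrays, and Fgl2, a fibrinogen-like secreted protein, at least 1.59-fold lower, with 61.1 and 80.2 on the E9 arrays. Oasl2, an interferon-induced gene, was at least 1.45-fold lower. Such bounds applied to 19 genes measured with epoxomicin only and 13 measured with E9 only.

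The labelled cell type was checked against its markers. Of 12 CD8+ T cell identity genes 10 were measured, 6 of them lower and none higher with epoxomicin, and 3 lower without either epoxomicin array. The bright ones included Cd8b1, Thy1 with 4874.8 and 4419.0 in epoxomicin and 5397.6 and 5581.6 in E9, and Cd3e with 1936.4 and 1896.1 in epoxomicin and 2069.7 and 2127.4 in E9. The probe of Cd8a was close to background, with 39.2 and 37.0 in epoxomicin and 36.5 and 48.5 in E9, and Cd4 read 35.3 and 36.1 in epoxomicin and 34.9 and 37.0 in E9. Among markers of other cells, 6 of 15 B cell genes were measured, and their summed intensity was 693.9 and 616.2 with epoxomicin, against 1368.4 and 1366.8 with E9 and 784.9 and 787.8 with DMSO. H2-DMa, a chaperone of MHC class II that activated T cells may also express, carried most of that sum, with 421.5 and 368.7 with epoxomicin, against 1063.0 and 1072.5 with E9 (-1.38, adjusted p = 4.7e-05). The immunoglobulin light chain transcript Igk-C, outside the list under that name, read 49.1 and 48.1 with epoxomicin, against 241.6 and 377.7 with E9 and 199.1 and 229.0 with DMSO (-2.14, SE 0.17, adjusted p = 0.00019). The invariant chain gene Cd74 had 51.3 and 47.6 with epoxomicin and 96.7 and 88.0 with E9 (-0.65), and its DMSO arrays read 80.5 and 93.5. H2-Aa, a chain of MHC class II and the remaining called gene of the list, was not above background with epoxomicin, at 30.9 and 28.7, and read 43.2 and 54.2 with E9 and 52.9 and 45.7 with DMSO. Its adjusted p was 0.020 with all 4 arrays and 0.105 and 0.154 without the first or the second epoxomicin array. In Igk-C, Cd74 and H2-Aa the mean of the DMSO arrays was thus nearer to E9 than to epoxomicin. Pax5, Ms4a1, Cd22, Blnk and Ebf1, which define B cells, were not above background on 2 arrays, and Cd79b, at 77.7 and 72.5 in epoxomicin and 72.0 and 57.8 in E9, was not called (0.16).

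Myeloid and dendritic cell markers, 8 of 15 measured, summed to 1037.0 and 1038.1 with epoxomicin and 1155.5 and 1468.6 with E9. Neutrophil markers, 3 of 10 measured, summed to 100.4 and 102.5 with epoxomicin and 105.5 and 114.3 with E9, and erythroid and platelet markers, 4 of 11, to 145.6 and 148.8 with epoxomicin and 144.7 and 144.8 with E9. Of these markers the myeloid gene Mpeg1 (-0.27, adjusted p = 0.038) and the neutrophil gene S100a8 (-0.35, adjusted p = 0.035) were called, both lower with epoxomicin. Both calls were lost without either epoxomicin array. Stromal markers, 2 of 8, summed to 75.7 and 82.3 with epoxomicin and 110.5 and 93.3 with E9. The markers of CD4+ and regulatory T cells, 6 of 7 measured, summed to 1652.6 and 1520.7 with epoxomicin and 1427.4 and 1625.6 with E9, and these groups overlapped. The B cell sum moved with the lower interferon, MHC and memory genes, and its part in those results was not tested.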

How the data were processed

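Mouse CD8+ T cell RNA was measured on 6 bead arrays, labelled with streptavidin-Cy3 per the labels' protocols. The values are intensity values of the deposited series table; its sorted values are identical in all 6 columns, so the authors had quantile-normalized it. The scanner software and background handling are not given in the sources used here. A second table was left out, since its 6 value columns match no sample label. Replicates were grouped by title.

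The background limit, 34.5, was set from the mode of the intensities (30.7) and the SD below it (2.34) at a one-sided probability of 0.05; it left 48.6% of 45281 probes above it on each array. Of those probes 35784 had 1 gene symbol, 0 several and 9497 none; 33385 symbols were matched to RefSeq and 2399 kept the array's name. Intensities were corrected with normexp (offset 50), taken to log2, reduced to the brightest probe per gene (4258 genes had more than 1) and fitted with limma (lmFit and eBayes) over the 4 arrays, with 2 residual and 5.52 prior degrees of freedom and two-sided p adjusted by Benjamini-Hochberg over all 12650 genes. At an unadjusted p under 0.05, 2965 genes passed. Of the 1443 called genes 648 had further kept probes; for 302 of these a further probe passed in the same direction, and for 2 (Adap1 and Ppp2r5d) in the opposite one. Only 2 arrays a group limit the precision, and p-values measure the spread between these arrays. On simulated data for the 12650 genes, 18% of genes shifted by 0.25 on the log2 scale and 100% of those shifted by 0.5, 1 or 2 were recovered, with 13 of 12450 unshifted genes passing. In the measured data a difference over 0.5 did not always pass. No glycolysis gene was called higher, though the highest log2 fold change of that list was 0.58.

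The comparison's members and the gene lists were chosen with earlier results of these data known, and lists are described by counts and medians with no test. Named genes were, among called genes above background on all 4 arrays whose groups do not overlap, the 12 highest and 12 lowest, leaving out clone and accession labels; up to 6 bounds each way; up to 6 called members of each list (up to 2 with the smallest p where none was called); and a set named whatever its values. Not all of these are printed. Sums of markers are over deposited intensities. Alternatives tried were a model of all 3 groups, a replicate block, no background correction, an offset of 16, other filters on dim probes, the mean of a gene's probes, eBayes with trend and robust settings, and leaving out each array. Fits were run in limma 3.58.1 under R 4.3.3, and tables and figures were made in Python 3.11.15 (pandas 2.3.3, matplotlib 3.10.9).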

Additional observations from a re-analysis of the deposited data

How the results depend on the processing

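Over the 4 fits that each leave out 1 array, the changed genes ranged from 611 to 1841, the higher genes from 245 to 899, the lower genes from 355 to 942 and the genes differing at least 2-fold from 162 to 180. An offset of 16 in place of 50 gave 257 genes differing at least 2-fold, against 164, which follows from the smaller offset shrinking dim genes less, while no background correction gave 218 and the mean of all kept probes 134. Across the settings that kept all 4 arrays unpaired or paired by number the count of changed genes ran from 1060 with the replicate block to 1692 in a model of all 3 groups. The labels do not say whether arrays of the same replicate number were paired. Deviations of same-numbered arrays correlated at -0.21 for epoxomicin and E9, 0.22 for epoxomicin and DMSO and -0.33 for E9 and DMSO. The block by replicate number gave 463 higher and 597 lower genes, with 164 still at least 2-fold. A crossed pairing, added after seeing the data, gave 2244 changed genes, 1133 higher and 1111 lower, with 164 at least 2-fold. Of 209 named changed genes 131 kept their call under all 13 alternatives other than the crossed pairing, 46 lost it only without an epoxomicin array and 32 also elsewhere, and no named gene turned its sign with a call. All 76 named changed genes differing at least 2-fold kept their call under the same alternatives, but 68 of them were still at least 2-fold by the mean of all kept probes, and 35 named changed genes had a log2 fold change over 1.5 times smaller by that mean. Of the genes printed, Fkbp5, Hsph1, Mpeg1, Pfkp, Psmb5, Psmg1, Rps6, S100a8 and Uchl5 also lost their call under 1 or more settings that kept all 4 arrays. Cdc20, Cdk1, Cenpf, Rrm1 and Sel1l, also printed, lost it by the mean of all kept probes, with all 4 arrays kept. Of 23 named genes that did not pass, 9 passed in some alternative. Signal over background limits the dim genes: those near 34.5 carry smaller fold changes on the offset scale.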
